A study of Mus musculus with 12 samples.

Results

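The 32 genes described here encode enzymes that break down fatty acids in mitochondria and peroxisomes, together with the proteins that activate fatty acids, carry them across membranes and build peroxisomes. They were chosen by name as a functional group. The rule itself used no measured value, but the genes were chosen with earlier results of these data known. All 32 were among the 20551 genes of the count table, and all 32 passed the filter on low counts, which kept 13729 genes. They fell into 8 groups by role: the carnitine shuttle (3 genes), acyl-CoA dehydrogenases (4), the hydratase, dehydrogenase and thiolase steps (5), isomerases and reductases for unsaturated chains (4), the electron transfer flavoprotein branch (3), peroxisomal enzymes (5), peroxisome membrane and import (3), and acyl-CoA synthetases with 1 thioesterase (5).

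RNA was measured by bulk RNA sequencing in airway macrophages (AMs) of C57BL/6 mice, with 3 libraries in each of 4 groups: wild-type (WT) AMs in medium, WT AMs given LPS, Scnn1b-transgenic (Scnn1b-Tg) AMs in medium, and Scnn1b-Tg AMs given LPS. In Scnn1b-Tg mice the β subunit of the airway sodium channel ENaC is overexpressed from a club cell secretory protein promoter, which is active in airway epithelium and not in AMs, and the airways become obstructed by mucus. Mice were 6 weeks old and, for sequencing, female per the study's methods. LPS of Pseudomonas aeruginosa was given at 100 ng/ml for 12 h in culture. Each of the 6 pools (WT 16, 17 and 18, and Tg 17, 18 and 19) combined lavages of 3 to 4 animals and gave 1 medium and 1 LPS library. WT 16, WT 17 and Tg 17 formed library batch 1, and WT 18, Tg 18 and Tg 19 formed batch 2. The labels describe adherent lavage cells, whereas the study's methods describe sorting from digested lung, and the 2 accounts were not reconciled here.

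Long-chain fatty acids are first joined to coenzyme A by acyl-CoA synthetases (Acsl). To enter mitochondria the chain is passed to carnitine by CPT1 at the outer membrane, carried through the inner membrane by the carrier encoded by Slc25a20, and returned to coenzyme A by CPT2. Each round of β-oxidation then takes 4 reactions (a dehydrogenation, a hydration, a second dehydrogenation and a thiolase cleavage), and electrons of the first reaction pass to the respiratory chain through the electron transfer flavoprotein. Peroxisomes shorten very long and branched chains with a related set of enzymes whose first oxidase makes hydrogen peroxide, which catalase removes. Resident AMs take up surfactant lipid and are known for high expression of lipid-handling genes.

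The libraries held 48.2 to 60.9 M estimated counts, and the lowest count of any of the 32 genes in any library was 211 (Acsl3), so none was near the detection limit. Levels are given as counts per M counts (CPM) after TMM scaling, a correction for library composition. All 10 AM markers examined were present, with a summed level of 8560 to 17400 CPM. Summed markers of other cells ranged from 47.5 to 159 CPM for monocytes (8 of 8 in the table), 8.36 to 16.6 for neutrophils (4 of 8), 0.754 to 3.57 for dendritic cells (4 of 6), 0.171 to 1.25 for T or NK cells (5 of 6), 0 to 1.12 for B cells (4 of 5), 1.48 to 20.5 for eosinophils (3 of 5) and 0 to 0.301 for erythroid cells (4 of 5). Epithelial markers (8 of 8) summed to 81.5 to 120 CPM in WT and 36.5 to 75.4 CPM in Scnn1b-Tg libraries, a difference between genotypes whose part in the results below was not tested. AM markers changed with LPS themselves: 8 of 10 were called in WT and 9 of 10 in Scnn1b-Tg AMs, 2 of them upwards in each, and mean Siglecf was 115 CPM in WT medium and 11.1 CPM in WT LPS libraries. Markers of other cells also moved with LPS: the eosinophil sum was 14.8 to 20.5 CPM in WT medium and 2.34 to 3.85 CPM with LPS, and 8.93 to 20.4 and 1.48 to 8.54 CPM in Scnn1b-Tg libraries, with Ear6, the 1 marker tested and nearly all of the sum, called lower in both, and Prg2 at 0 in every medium library. The dendritic cell sum was 0.754 to 1.21 CPM in WT medium and 2.06 to 3.4 CPM with LPS, and 0.841 to 1.29 and 2.92 to 3.57 CPM in Scnn1b-Tg libraries. Of 3 neutrophil markers tested, 2 were called in WT (1 higher) and 3 in Scnn1b-Tg AMs (2 higher). Of 5 monocyte markers tested, 1 was called in WT (lower) and 3 in Scnn1b-Tg AMs (2 higher). The part of these markers in the LPS results was not tested. In bulk RNA, fewer cells of a type and less RNA per cell cannot be told apart.

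Sequence before a RefSeq start of 5 of the genes is shown first, because these genes carry the 2 directions of the LPS response. Cpt1a, Hadhb and Acox3 fell with LPS, and Acsl1 and Acsl5 rose. The stretches come from RefSeq on the GRCm38 (mm10) build, plus strand, and lie within the 250 bases before an annotated start. Bases that GENCODE M21 annotates as untranslated were left out. Capitals mark GGGCGG (the GC box bound by Sp factors) and AGGTCA (the core element of many nuclear receptor sites, those of PPARs among them), each on either strand.
Cpt1a, chr19:3323051-3323284: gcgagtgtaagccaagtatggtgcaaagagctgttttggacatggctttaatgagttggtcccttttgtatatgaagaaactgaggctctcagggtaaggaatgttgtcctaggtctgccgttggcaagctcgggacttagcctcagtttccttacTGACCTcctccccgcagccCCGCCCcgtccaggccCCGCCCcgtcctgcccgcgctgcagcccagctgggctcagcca
Hadhb, chr5:30155163-30155247: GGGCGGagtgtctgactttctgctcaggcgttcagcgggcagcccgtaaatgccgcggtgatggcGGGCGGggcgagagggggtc
Acox3, chr5:35582784-35583033: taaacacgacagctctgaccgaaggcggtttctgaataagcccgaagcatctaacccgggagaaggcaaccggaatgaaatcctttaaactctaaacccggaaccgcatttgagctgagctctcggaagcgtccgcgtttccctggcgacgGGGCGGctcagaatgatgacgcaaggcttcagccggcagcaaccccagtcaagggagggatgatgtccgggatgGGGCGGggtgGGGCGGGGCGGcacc
Acsl1, chr8:46470787-46471036: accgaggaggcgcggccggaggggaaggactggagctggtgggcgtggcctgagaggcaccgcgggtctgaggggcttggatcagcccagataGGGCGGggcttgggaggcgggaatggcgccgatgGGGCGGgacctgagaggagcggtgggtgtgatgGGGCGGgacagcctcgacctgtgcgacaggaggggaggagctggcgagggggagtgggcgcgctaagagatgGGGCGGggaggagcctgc
Acsl5, chr19:55253119-55253368: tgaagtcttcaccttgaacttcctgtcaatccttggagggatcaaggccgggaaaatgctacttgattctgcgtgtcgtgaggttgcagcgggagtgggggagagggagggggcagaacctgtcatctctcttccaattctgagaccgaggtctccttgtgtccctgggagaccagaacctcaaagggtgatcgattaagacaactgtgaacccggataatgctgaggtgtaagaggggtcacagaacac
The Cpt1a stretch held 1 AGGTCA and 2 GGGCGG, and the Hadhb stretch held 2 GGGCGG in 85 bases. The Hadhb stretch lies between the annotated ends of Hadha and Hadhb, which encode the 2 subunits of the mitochondrial trifunctional protein and are transcribed away from each other, with RefSeq starts 273 bp apart. Acox3 and Acsl1, which moved in opposite directions, each held 4 GGGCGG, and Acsl5 held neither motif. The Acsl1 stretch belongs to 1 of 2 RefSeq starts of that gene. The Cpt1a and Acsl5 stretches lie inside the span GENCODE M21 gives these genes (chr19:3322334-3385733 and chr19:55251938-55297720), which begins before the RefSeq start used.

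Over full windows from 250 bases before to 50 bases after the start, 29 of the 32 genes had a RefSeq entry, with 33 windows in all; Acaa2, Decr1 and Hsd17b4 had none. GGGCGG was in 24 of the 33 windows (72.7%), against 35.7% of 32851 windows of all genes. The windows of the group were richer in G and C, with a median of 62.0% against 52.7%. AGGTCA was in 6 windows (18.2% against 16.3%), those of Cat, Acadm, Scp2, Echs1, Acadvl and Cpt1a. The direct repeat of AGGTCA with 1 base between (DR1) was in 0 of 33 windows, against 0.0396% of all. CCAAT was in 14 windows (42.4% against 37.4%). TATAAA was in 0 of 33 windows, against 13.6% of all. These are matches of letters on either strand, and the motifs were not tested as binding sites.

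The mean levels per transcript length in WT medium ran from 1.76 to 233 CPM per kb.

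**Figure D1:**
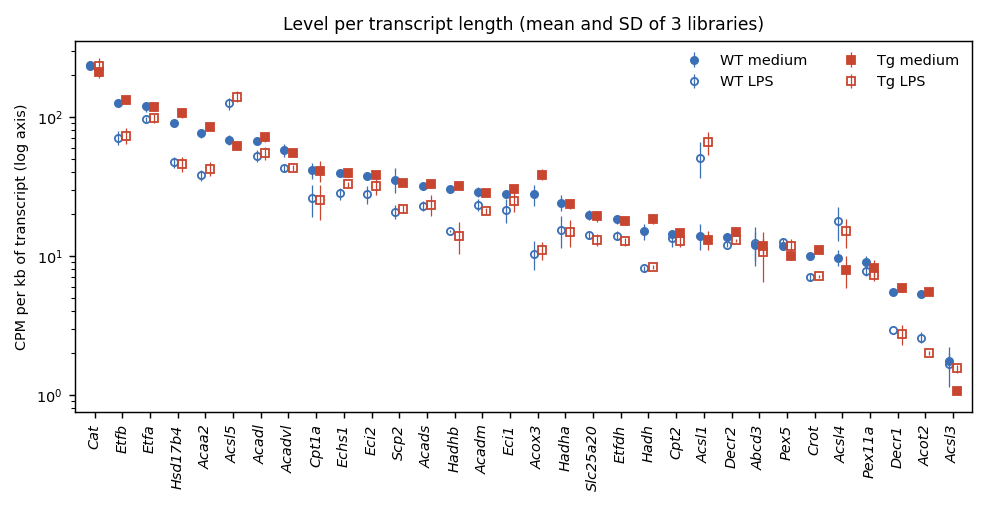
Level of each of the 32 genes as CPM per kb of transcript on a log axis, ordered by the level in WT medium; points are means and bars SD of 3 libraries, circles WT, squares Scnn1b-Tg, filled medium and open LPS. Cat stands highest at 233 in WT medium, most open symbols lie below their filled partners, and for Acsl1, Acsl4 and Acsl5 the open symbols lie above.

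On the CPM per kb scale, the level of Cat (catalase) in WT medium was 233 ± 15.3 (SD, n = 3). It was followed by Etfb at 127 ± 4.57, Etfa at 119 ± 10.0, Hsd17b4 at 90.6 ± 2.97 and Acaa2 at 76.5 ± 5.38. The intervals of mean ± SD of Etfb and Etfa overlapped, and so did those of Acsl5 (68.5 ± 5.22) and Acadl (67.2 ± 2.59). The lowest levels per kb were those of Decr1 (5.54 ± 0.0592), Acot2 (5.35 ± 0.185) and Acsl3 (1.76 ± 0.243). With LPS the order changed in WT AMs: Acsl5 reached 125 ± 12.9 CPM per kb, second to Cat at 235 ± 9.85, and Acsl1 went from 14 ± 3.03 to 51.0 ± 14.6, above Hsd17b4 at 47.3 ± 4.48 by less than its SD.

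LPS against medium asked how the AMs of each genotype changed when exposed to a bacterial product. In both genotypes, genes of nearly every step of mitochondrial β-oxidation and of the peroxisomal oxidation enzymes fell, 3 acyl-CoA synthetases rose, and the call was missed for catalase and for most of the peroxisome membrane and import genes. In WT AMs 24 of the 32 genes passed the test (edgeR's quasi-likelihood test, two-sided, Benjamini-Hochberg adjusted p under 0.05 over all 13729 genes), 3 of them higher and 21 lower, where 31.8% of all genes were called, 15.5% higher and 16.2% lower. In Scnn1b-Tg AMs 25 passed, 5 higher and 20 lower, where the background was 38.1%, 19.3% higher and 18.7% lower. The share of the 32 genes called was 75.0% in WT and 78.1% in Scnn1b-Tg AMs. Their median log2 fold change was −0.44 in WT and −0.40 in Scnn1b-Tg AMs, against 0.00 and −0.02 over all genes tested.

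The same 20 genes fell in both genotypes (62.5% of the 32, where 13.6% of all genes tested fell in both), and the same 3 rose in both (Acsl1, Acsl4 and Acsl5). Eci2 was called in WT alone, Pex5 and Acsl3 in Scnn1b-Tg alone, and Cpt2, Eci1, Decr2, Cat, Pex11a and Abcd3 in neither. The fall was moderate: among the genes lower in both, the median log2 fold change in WT was −0.68 for these 20 and −0.77 for the 1871 of all genes. By pool, 24 genes were lower with LPS in all 6 pools, 4 were higher in all 6 (Pex5, Acsl1, Acsl4 and Acsl5), and 4 were mixed (Cpt2, Cat, Abcd3 and Acsl3). LPS and medium libraries did not overlap for 26 genes in WT (background 38.7%) and for 26 in Scnn1b-Tg AMs (background 43.8%).

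**Figure D2:**
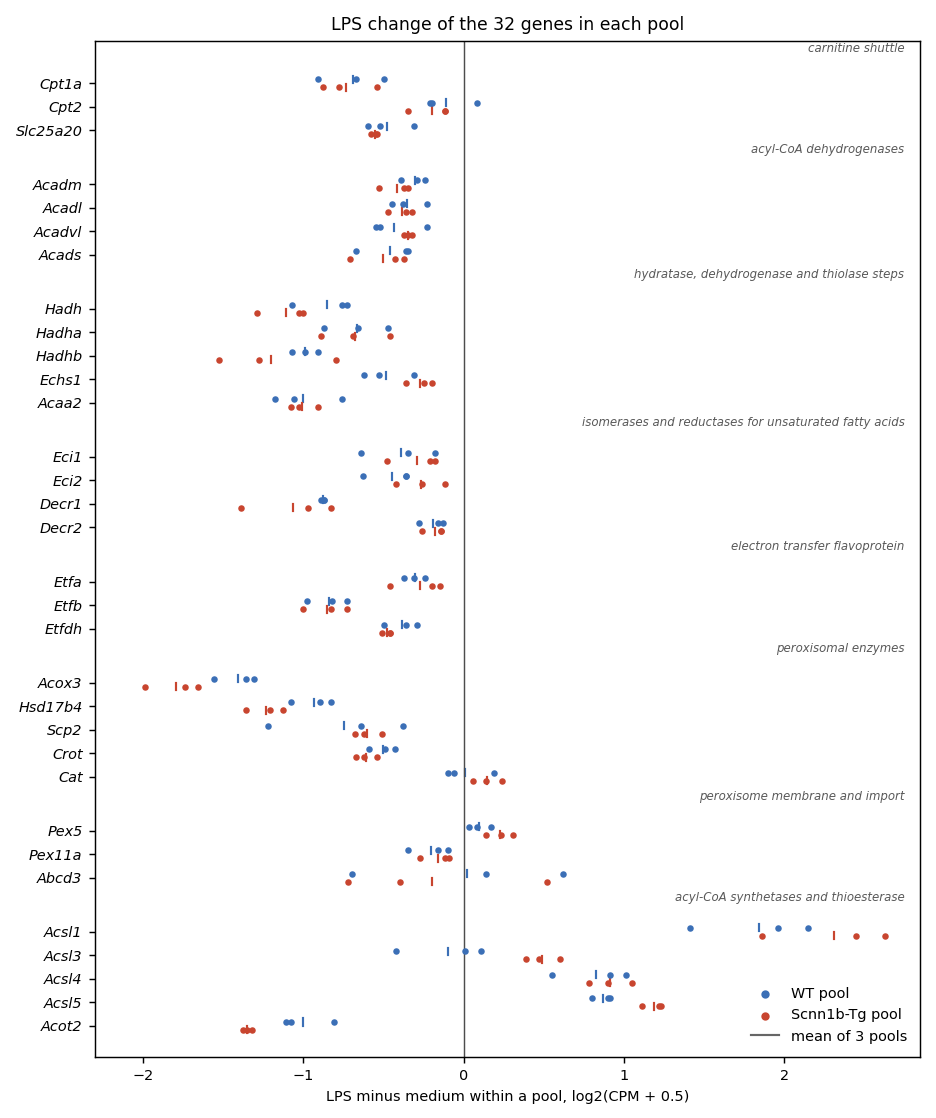
LPS minus medium within each pool on the log2(CPM + 0.5) scale for the 32 genes, grouped by role; points are the 3 WT (blue) and 3 Scnn1b-Tg (red) pools and ticks their means. Points of 24 genes lie left of 0 in all 6 pools, those of Acsl1, Acsl4 and Acsl5 lie right of it, and those of Abcd3 lie on both sides.

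The summed level of the 27 genes other than the 4 Acsl genes and Cat was 1980, 2130 and 2010 CPM in WT medium and 1390, 1400 and 1260 CPM in WT LPS libraries (pools 16, 17 and 18). In Scnn1b-Tg AMs it was 2220, 2060 and 2160 CPM in medium and 1440, 1310 and 1320 CPM with LPS (pools 17, 18 and 19). Every LPS library was thus below every medium library in this sum. The genes left out include Acsl1, Acsl4 and Acsl5, which rose in both genotypes, and Cat, which was not called. The lower sum with LPS is therefore partly fixed by that choice. The sum over all 32 genes ranged from 2890 to 3200 CPM in medium and from 2600 to 3060 CPM with LPS and overlapped within each genotype.

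In the carnitine shuttle, 2 of 3 genes fell in each genotype. Slc25a20 (ENSMUSG00000032602, chr9:108662088-108684641, plus strand) encodes the carnitine-acylcarnitine carrier of the inner membrane. Its levels were 32.2, 38.0 and 35.9 CPM in WT medium and 25.8, 26.4 and 23.5 CPM in WT LPS libraries. In Scnn1b-Tg AMs they were 38.1, 33.3 and 32 CPM in medium and 26.1, 22.6 and 21.3 CPM with LPS. All LPS libraries lay below all medium libraries, with a log2 fold change of −0.49 (SE 0.09, adjusted p = 0.00211) in WT and −0.57 (SE 0.09, adjusted p = 0.000653) in Scnn1b-Tg AMs.

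Cpt1a, which encodes the liver-type CPT1 that commits long chains to mitochondrial import, had the highest level of the shuttle genes and varied more between pools. It was at 162, 205 and 168 CPM in WT medium and at 102, 145 and 89.0 CPM with LPS. The Scnn1b-Tg levels were 208, 148 and 175 CPM in medium and 143, 86.4 and 94.9 CPM with LPS. It fell in all 6 pools, by 0.69 (SE 0.15, adjusted p = 0.00494) on the log2 scale in WT and by 0.73 (SE 0.15, adjusted p = 0.00297) in Scnn1b-Tg AMs. Cpt2, the inner-membrane transferase, did not pass the test: its log2 fold change was −0.11 (SE 0.10, adjusted p = 0.490) in WT and −0.20 (SE 0.10, adjusted p = 0.167) in Scnn1b-Tg AMs, with all libraries between 27.7 and 36.9 CPM. Cpt1b, the muscle-type form, held at most 4 counts in any library.

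All 4 acyl-CoA dehydrogenases, which start each round and differ in the chain length they prefer, fell in both genotypes. The largest falls were in Acads, for short chains, at −0.46 in WT and −0.49 in Scnn1b-Tg AMs on the log2 scale, and the range over the 4 genes was narrow, from −0.31 to −0.46 in WT and from −0.35 to −0.49 in Scnn1b-Tg AMs. In WT, Acads was not called without the medium library of pool 18 (adjusted p = 0.0509) or the LPS library of pool 17 (0.053), and Acadm, for medium chains, was not called without either of the libraries of pool 18, the medium library of pool 16 or the LPS library of pool 17 (adjusted p from 0.0814 to 0.144), without the filter on low counts (0.0692) or when only the WT groups were fitted (0.159). Acadvl (ENSMUSG00000018574, chr11:70010183-70015411, minus strand), for very long chains, was at 113, 139 and 124 CPM in WT medium and at 96.9, 94.8 and 85.8 CPM with LPS. In Scnn1b-Tg AMs it was at 121, 115 and 118 CPM in medium and at 97.3, 89.0 and 93.1 CPM with LPS. The groups did not overlap, and the log2 fold change was −0.44 (SE 0.08, adjusted p = 0.00172) in WT and −0.35 (SE 0.08, adjusted p = 0.00576) in Scnn1b-Tg AMs. Exons of Dvl2 cover 42.9% of its exonic length and counting ignored strand, so the values of Acadvl are uncertain.

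The 5 genes of the later steps fell in both genotypes, their median log2 fold change being −0.88 in WT and −1.01 in Scnn1b-Tg libraries. Acaa2 (ENSMUSG00000036880, chromosome 18) encodes the mitochondrial thiolase that cuts off acetyl-CoA. It was at 108, 116 and 124 CPM in WT medium and at 63.3, 55.4 and 54.4 CPM with LPS. Scnn1b-Tg libraries held 123, 137 and 129 CPM in medium and 58.0, 72.6 and 62.6 CPM with LPS. LPS thus left 49.9% of the medium level in WT and 49.7% in Scnn1b-Tg AMs (log2 fold change −1.0, SE 0.10, adjusted p = 1.62e-05, and −1.01, SE 0.10, adjusted p = 1.11e-05).

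Hadhb (ENSMUSG00000059447, chr5:30155248-30184593, plus strand), the thiolase-bearing subunit of the trifunctional protein whose upstream sequence is shown above, was at 63.4, 64.4 and 57.7 CPM in WT medium and at 31.6, 30.4 and 30.5 CPM with LPS. The Scnn1b-Tg levels were 64.1, 67.7 and 63.6 CPM in medium and 36.5, 27.6 and 21.8 CPM with LPS, the widest spread of its 4 groups. Its log2 fold change was −1.0 (SE 0.13, adjusted p = 0.000157) in WT and −1.20 (SE 0.13, adjusted p = 3.06e-05) in Scnn1b-Tg AMs. Hadha, the partner subunit transcribed from the other side of the shared upstream stretch, fell as well, by 0.66 (SE 0.12, adjusted p = 0.00178) and by 0.69 (SE 0.12, adjusted p = 0.0011) on the log2 scale.

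Hadh (ENSMUSG00000027984, chr3:131233419-131272101, minus strand), the dehydrogenase of the third reaction for shorter chains, was at 25.9, 23.8 and 30.6 CPM in WT medium and at 15.2, 14.1 and 14.4 CPM with LPS. In Scnn1b-Tg AMs it was at 31.0, 31.5 and 36.1 CPM in medium and at 15, 15.5 and 14.5 CPM with LPS. The 6 LPS libraries lay within 14.1 to 15.5 CPM, and the 6 medium libraries were all above them. The log2 fold change was −0.88 (SE 0.10, adjusted p = 6.23e-05) in WT and −1.13 (SE 0.10, adjusted p = 6.28e-06) in Scnn1b-Tg AMs. Echs1, the short-chain enoyl-CoA hydratase, changed least of the 5, by −0.49 (adjusted p = 0.00217) and −0.27 (adjusted p = 0.0383). The Scnn1b-Tg call of Echs1 was lost on leaving out any 1 Scnn1b-Tg library other than that of pool 18 in medium (adjusted p from 0.0624 to 0.151). Over all alternatives, that call held in 10 of 16.

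Of the 4 isomerases and reductases, which deal with double bonds that β-oxidation cannot pass, Decr1 was the one called in both genotypes. Decr1 (ENSMUSG00000028223, chr4:15917240-15945507, minus strand), the mitochondrial dienoyl-CoA reductase, was at 16.4, 16.6 and 16.2 CPM in WT medium and at 8.73, 8.69 and 8.63 CPM with LPS. Scnn1b-Tg libraries held 18, 16.2 and 17.5 CPM in medium and 6.57, 8.92 and 8.71 CPM with LPS. All LPS libraries were below all medium libraries (log2 fold change −0.92, SE 0.12, adjusted p = 0.000131 in WT, and −1.10, SE 0.12, adjusted p = 2.44e-05 in Scnn1b-Tg AMs).

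The other 3 of this group had smaller differences, whose calls depended on how pools were handled or on the tool. Eci2, an enoyl-CoA isomerase, fell in WT by 0.45 (SE 0.11, adjusted p = 0.0102, or 0.0734 with only the WT groups fitted) and had −0.26 (SE 0.11, adjusted p = 0.086) in Scnn1b-Tg AMs. With the pool as a fixed block, Eci2 passed in Scnn1b-Tg AMs too (adjusted p = 0.0324). Eci1, the related mitochondrial isomerase, had −0.38 (SE 0.13, adjusted p = 0.0522) in WT and −0.29 (SE 0.13, adjusted p = 0.116) in Scnn1b-Tg AMs, and passed with the pool block at adjusted p = 0.0188 and 0.0495. Decr2, the peroxisomal reductase, had −0.20 and −0.19 and passed with the pool as a random effect (adjusted p = 0.0356 and 0.035), not as a fixed block (0.0598 and 0.0616). DESeq2 with the same design called Eci1 in WT (adjusted p = 0.0366) and Decr2 in both genotypes (0.0484 in WT and 0.0471 in Scnn1b-Tg AMs).

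All 3 genes of the electron transfer flavoprotein branch fell in both genotypes. Etfb (ENSMUSG00000004610, chr7:43444083-43457800, plus strand), its β subunit, was at 118, 110 and 112 CPM in WT medium and at 70.9, 55.8 and 63.3 CPM with LPS. The Scnn1b-Tg levels were 119, 126 and 111 CPM in medium and 59.1, 75.4 and 62.4 CPM with LPS. The groups did not overlap (log2 fold change −0.84, SE 0.11, adjusted p = 0.00017 in WT, and −0.85, SE 0.11, adjusted p = 0.000113 in Scnn1b-Tg AMs). Other annotated genes, Gm45233 and Mir7051, share 58.2% of the exonic length of Etfb, which leaves its values uncertain. The α subunit gene Etfa fell less, by 0.31 and by 0.27 on the log2 scale, and Etfdh, which hands the electrons to ubiquinone, by 0.39 and by 0.49. The call of Etfa was lost in WT without either medium library of pools 16 and 18 or the LPS library of pool 18 (adjusted p from 0.0539 to 0.107). It was also lost with only the WT groups fitted (0.0833). In Scnn1b-Tg AMs it was lost without either library of pool 17, the medium library of pool 18 or the LPS library of pool 19 (from 0.0618 to 0.138). The Scnn1b-Tg call of Etfa held in 11 of 16 alternatives.

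**Figure D3:**
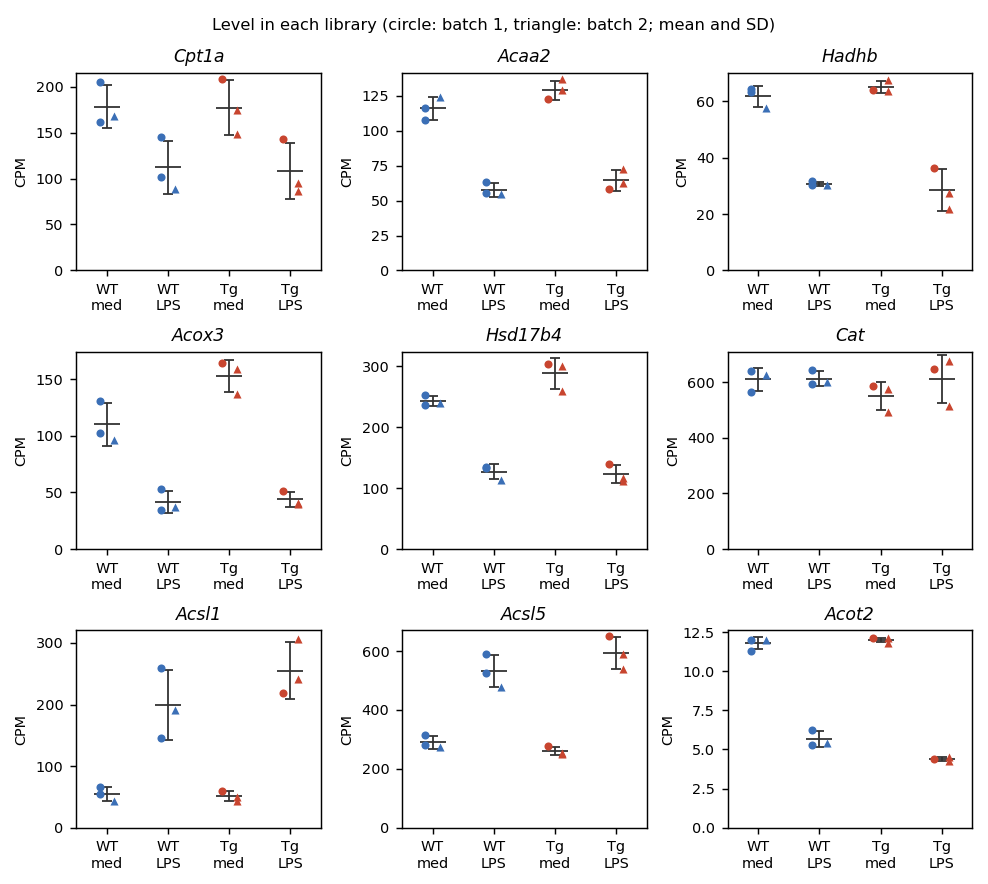
Level (CPM) of 9 of the genes in each library, circles for batch 1 and triangles for batch 2, blue for WT and red for Scnn1b-Tg; bars show the mean and SD of 3 libraries and each axis starts at 0. LPS libraries lie below medium libraries for Cpt1a, Acaa2, Hadhb, Acox3, Hsd17b4 and Acot2 in each genotype and above them for Acsl1 and Acsl5, and overlap them for Cat.

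Of the 5 peroxisomal enzymes, 4 fell in both genotypes and Cat was not called. Acox3 (ENSMUSG00000029098, chr5:35583040-35615352, plus strand), an acyl-CoA oxidase of branched chains that makes hydrogen peroxide, had the largest fall of the 32 genes in both genotypes. Its levels were 102, 131 and 95.9 CPM in WT medium and 34.4, 52.8 and 37.1 CPM with LPS. In Scnn1b-Tg AMs they were 164, 137 and 159 CPM in medium and 51.4, 40.7 and 39.7 CPM with LPS.

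Acox3 thus kept 37.8% of its medium level in WT (log2 fold change −1.40, SE 0.15, adjusted p = 3.24e-05) and 28.5% in Scnn1b-Tg AMs (−1.81, SE 0.15, adjusted p = 3.42e-06). The gene 4931431C16Rik shares 6.1% of its exonic length. Hsd17b4 (ENSMUSG00000024507, chromosome 18) encodes the bifunctional enzyme of the next peroxisomal reactions. It was at 237, 252 and 240 CPM in WT medium and at 133, 135 and 113 CPM with LPS. In Scnn1b-Tg AMs it was at 304, 259 and 301 CPM in medium and at 139, 112 and 117 CPM with LPS.

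The LPS levels of Hsd17b4 overlapped between genotypes, while every medium library was at 237 CPM or more. The log2 fold change was −0.94 (SE 0.08, adjusted p = 7.27e-06) in WT and −1.24 (SE 0.08, adjusted p = 6.51e-07) in Scnn1b-Tg AMs. Scp2, whose long form is the peroxisomal thiolase of branched chains, fell by 0.76 (adjusted p = 0.00131) and by 0.61 (adjusted p = 0.0043). Crot, which moves shortened chains to carnitine for export from the peroxisome, fell by 0.52 (adjusted p = 0.000554) and by 0.62 (adjusted p = 0.000107).

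Cat was at 639, 564 and 626 CPM in WT medium and at 595, 643 and 602 CPM with LPS, and at 586, 494 and 575 CPM in Scnn1b-Tg medium and 646, 514 and 678 CPM with LPS. The groups overlapped in both genotypes. Its log2 fold change was 0.01 (SE 0.11, adjusted p = 0.969) in WT and 0.15 (SE 0.11, adjusted p = 0.313) in Scnn1b-Tg AMs, against −1.40 and −1.81 for the oxidase gene Acox3 in the same libraries.

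None of the 3 peroxisome membrane and import genes was called in WT and 1 was in Scnn1b-Tg AMs. Pex11a (ENSMUSG00000030545, chr7:79735957-79743131, minus strand), a membrane protein of peroxisome division, was at 22.4, 17.9 and 20.5 CPM in WT medium and at 17.5, 16.0 and 19.1 CPM with LPS. Scnn1b-Tg libraries held 15.7, 20.5 and 19.1 CPM in medium and 14.7, 16.9 and 17.5 CPM with LPS. The groups overlapped (log2 fold change −0.22, SE 0.11, adjusted p = 0.158 in WT, and −0.17, SE 0.11, adjusted p = 0.253 in Scnn1b-Tg AMs). Pex5, the receptor that imports matrix enzymes, had 0.09 (adjusted p = 0.39) in WT and rose by 0.23 on the log2 scale in Scnn1b-Tg AMs (adjusted p = 0.0326). That call was lost when library sizes alone were used for scaling (adjusted p = 0.205). It was also lost when any 1 Scnn1b-Tg library other than that of pool 18 with LPS was left out (from 0.0715 to 0.159). Over all alternatives, it held in 9 of 16.

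Abcd3, an importer of fatty acyl-CoA in the peroxisome membrane, moved in opposite directions in the 2 batches. It was at 30.5, 48.9 and 45.7 CPM in WT medium and at 47.1, 53.9 and 27.9 CPM with LPS (pools 16, 17 and 18). The Scnn1b-Tg levels were 37.3, 38.7 and 46.6 CPM in medium and 53.9, 29.2 and 28.2 CPM with LPS (pools 17, 18 and 19). All 3 pools of batch 1 were higher with LPS (mean differences 0.38 in WT and 0.52 in Scnn1b-Tg AMs on the log2(CPM + 0.5) scale), and all 3 of batch 2 were lower (−0.70 and −0.56). The pooled log2 fold changes, −0.01 (SE 0.27) and −0.20 (SE 0.27), therefore describe neither batch, and the difference between batches was not tested.

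Of the 4 acyl-CoA synthetases, which activate fatty acids for oxidation as well as for lipid synthesis, 3 rose in both genotypes. Acsl1 (ENSMUSG00000018796, chr8:46471037-46536051, plus strand) was at 54.7, 66.2 and 42.6 CPM in WT medium and at 146, 259 and 191 CPM with LPS. In Scnn1b-Tg AMs it was at 59.8, 49.2 and 43.6 CPM in medium and at 218, 307 and 241 CPM with LPS. The lowest LPS library (146 CPM) was above the highest medium library (66.2 CPM). The rise was 3.67-fold in WT (log2 fold change 1.88, SE 0.22, adjusted p = 7.87e-05) and 5.07-fold in Scnn1b-Tg AMs (2.34, SE 0.23, adjusted p = 1.22e-05), the largest change of the 32 genes.

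Acsl5 (ENSMUSG00000024981, chr19:55251938-55297720, plus strand) started from a higher level. It was at 281, 316 and 275 CPM in WT medium and at 527, 589 and 479 CPM with LPS. Scnn1b-Tg libraries held 276, 251 and 253 CPM in medium and 650, 541 and 590 CPM with LPS. Its rise was 1.83-fold in WT (log2 fold change 0.87, SE 0.07, adjusted p = 6.68e-06) and 2.28-fold in Scnn1b-Tg AMs (1.19, SE 0.08, adjusted p = 4.29e-07). Exons of other genes share 9.9% of the exonic length of Acsl1 and 8.3% of that of Acsl5.

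Acsl4, which prefers arachidonic acid, was at 52.1, 57.6 and 44.7 CPM in WT medium and at 98.1, 116 and 65.6 CPM with LPS. The Scnn1b-Tg levels were 53.5, 31.9 and 40.6 CPM in medium and 100, 66.5 and 70.1 CPM with LPS. It rose 1.78-fold in WT (adjusted p = 0.000281) and 1.88-fold in Scnn1b-Tg AMs (adjusted p = 0.000103). Acsl3, the low-level member tied to lipid droplets, had a log2 fold change of −0.08 (SE 0.16, adjusted p = 0.746) in WT and rose by 0.54 (SE 0.17, adjusted p = 0.0276) in Scnn1b-Tg AMs. That call was lost with library sizes alone (adjusted p = 0.0601). It was also lost without the medium library of pool 17 or 19 or the LPS library of pool 18 or 19 (from 0.0633 to 0.129). Over all alternatives, it held in 10 of 16.

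Acot2 (ENSMUSG00000021226, chr12:83987861-83993873, plus strand), the mitochondrial thioesterase that releases the fatty acid from coenzyme A again, fell. It was at 12.0, 11.3 and 12.0 CPM in WT medium and at 5.29, 6.25 and 5.44 CPM with LPS. In Scnn1b-Tg AMs it was at 12.1, 12.1 and 11.8 CPM in medium and at 4.42, 4.53 and 4.25 CPM with LPS. LPS left 48.2% of the medium level in WT (log2 fold change −1.05, SE 0.10, adjusted p = 1.84e-05) and 36.7% in Scnn1b-Tg AMs (−1.45, SE 0.11, adjusted p = 1.32e-06). Acot2 has a close copy, Acot1, and reads may have been divided between them, so both values are uncertain.

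Genotype was compared within medium and within LPS to ask whether AMs from obstructed airways carried different levels of these genes. None of the 32 genes passed in medium, where 46 of all genes tested did (0.335%), and none in LPS, where 7 did (0.051%). The test of a different LPS response between genotypes (the interaction) called 0 of all 13729 genes (0.0%). At an unadjusted p under 0.05, 4 of the 32 genes were found in medium (background 13.4%), 2 in LPS (7.12%) and 4 in the interaction (5.95%). DESeq2 called 2 of the 32 in medium, Acox3 and Hsd17b4, where it called 3.65% of all genes, 0 of the 32 in LPS (1.06% of all genes) and 0 in the interaction (0.561%).

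The genotype estimates of the 2 genes called by DESeq2 were both of the higher-in-Tg direction in medium. Acox3 medium libraries spanned 95.9 to 131 CPM in WT and 137 to 164 CPM in Scnn1b-Tg AMs without overlap, and differed by 0.57 on the log2 scale (SE 0.15, adjusted p = 0.139 by edgeR and 0.0192 by DESeq2). It was 0.49 in batch 1 and 0.62 in batch 2 on the log2(CPM + 0.5) scale. Hsd17b4 medium libraries spanned 237 to 252 CPM in WT and 259 to 304 CPM in Scnn1b-Tg AMs, and differed by 0.30 (SE 0.08, adjusted p = 0.158 by edgeR and 0.034 by DESeq2), and 0.32 and 0.22 by batch. With LPS the genotype difference was 0.16 (SE 0.15) for Acox3 and 0.00 (SE 0.08) for Hsd17b4.

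**Figure D4:**
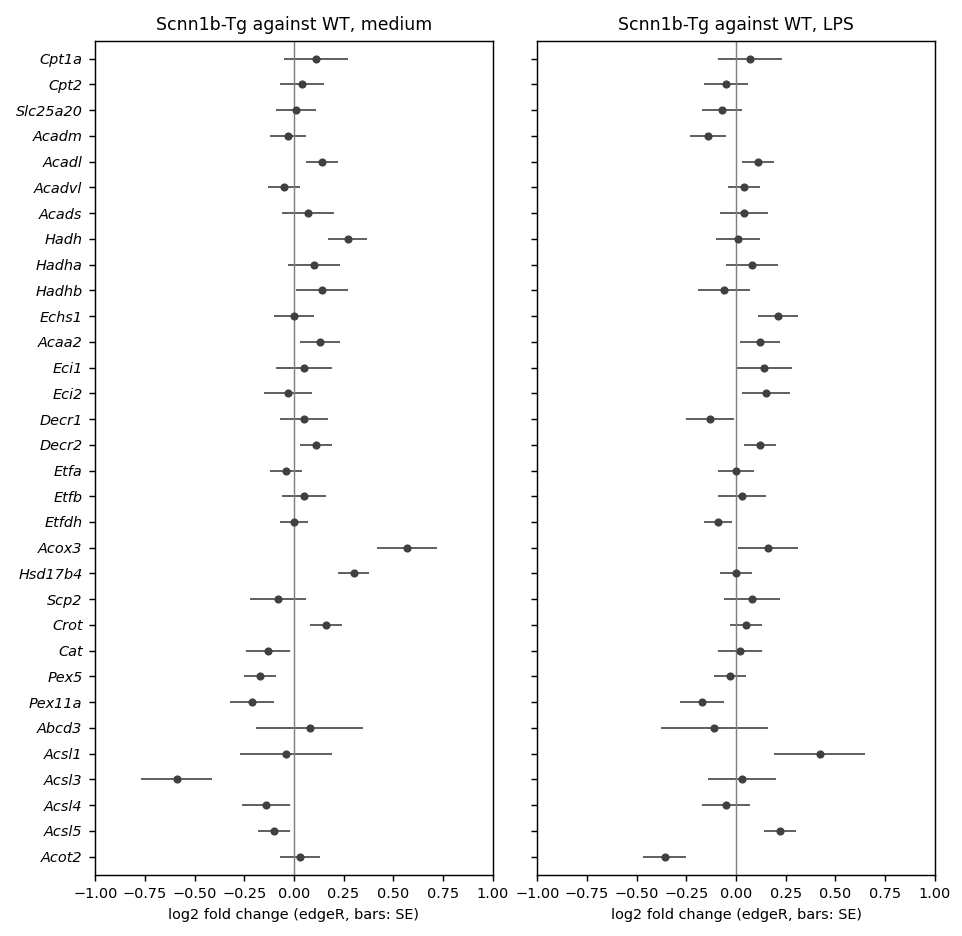
Scnn1b-Tg against WT for the 32 genes in medium (left) and with LPS (right), as the edgeR log2 fold change with its SE as bars. Acox3 and Hsd17b4 lie right of 0 and Acsl3 left of it in medium, Acot2 lies left of 0 with LPS, and no gene passed the edgeR threshold in either panel.

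Libraries of the genotypes also did not overlap in medium for Hadh (higher in Scnn1b-Tg), Pex5 and Acsl3 (both lower), which makes 5 of the 32 genes with Acox3 and Hsd17b4 (background 18.4%). Acsl3 was at 7.86, 7.03 and 5.95 CPM in WT medium and at 4.50, 4.22 and 3.94 CPM in Scnn1b-Tg medium libraries, a log2 fold change of −0.59 (SE 0.18, adjusted p = 0.18). With LPS the WT libraries of Acsl3 were at 8.55, 7.10 and 4.31 CPM and the Scnn1b-Tg libraries at 6.44, 5.67 and 6.24 CPM, and overlapped. With LPS, 3 genes did not overlap between genotypes (background 9.11%): Echs1 and Decr2 were higher and Acot2 lower in Scnn1b-Tg AMs. The Acot2 difference was −0.36 (SE 0.11, adjusted p = 0.396).

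Of the 20 genes lower with LPS in both genotypes, 16 (80.0%) had the larger fall in Scnn1b-Tg AMs, where 68.2% of the 1871 genes of the whole table that fell in both did. In the interaction, the lowest adjusted p among the 32 genes was 0.67, for Acsl5, whose rise was larger in Scnn1b-Tg AMs by 0.32 on the log2 scale (SE 0.11). The interaction estimates of the other genes with an unadjusted p under 0.05 were 0.62 (SE 0.24) for Acsl3, −0.39 (SE 0.15) for Acot2 and −0.30 (SE 0.12) for Hsd17b4. None is evidence of a different response at this threshold, and a p that misses it does not show that the responses were alike.

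Other genes of the same pathways were counted from lists. The first list held 34 further genes of fatty acid, ketone body and propionate metabolism, not all of them mitochondrial (Acot1, below, is cytosolic). Of these, 29 were tested, and 12 were called in WT (3 higher, 9 lower) and 22 in Scnn1b-Tg AMs (3 higher, 19 lower). These are 41.4% and 75.9% of those tested, against 31.8% and 38.1% of all genes. Oxct1, which activates ketone bodies for oxidation, was at 145, 159 and 149 CPM in WT medium and at 25.5, 23.1 and 22.6 CPM with LPS, and at 172, 180 and 194 CPM in Scnn1b-Tg medium and 38.8, 30.3 and 35.5 CPM with LPS. It fell more than any of the 32 genes, with a log2 fold change of −2.67 (SE 0.10, adjusted p = 2.03e-08) in WT and −2.39 (SE 0.10, adjusted p = 2.73e-08) in Scnn1b-Tg AMs. Acot1, the cytosolic copy of Acot2, fell by 1.97 and by 2.31, and Ech1, a dienoyl-CoA isomerase, by 1.38 and by 1.52.

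Of 43 further peroxisome genes, 39 were tested, and 14 were called in WT, all lower, and 20 in Scnn1b-Tg AMs (2 higher, 18 lower). The WT share, 35.9%, was near the 31.8% of all genes, and the Scnn1b-Tg share was 51.3% against 38.1%. Abcd2, an importer of very long chains and a relative of Abcd3, was at 50.9, 63.2 and 57.4 CPM in WT medium and at 13.4, 15.9 and 12.2 CPM with LPS, and at 76.0, 57.3 and 76.7 CPM in Scnn1b-Tg medium and 13.7, 12.1 and 14.9 CPM with LPS. It fell in both batches, by 2.05 (SE 0.15, adjusted p = 1.49e-06) on the log2 scale in WT and by 2.37 (SE 0.15, adjusted p = 3.65e-07) in Scnn1b-Tg AMs. Acaa1b, a peroxisomal thiolase, fell (log2 fold change −2.04 and −2.29), as did the membrane protein gene Pxmp4 (−1.16 and −1.52). The close copy Acaa1a stood higher than Acaa1b in WT medium (mean 151 against 53.3 CPM) and was not called. Its log2 fold change was −0.08 (adjusted p = 0.663) in WT and 0.27 (adjusted p = 0.0952) in Scnn1b-Tg AMs. Reads may have been divided between the 2 copies, so both values are uncertain.

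Of 18 regulators of these pathways, 16 were tested, and 9 were called in WT (3 higher, 6 lower) and 10 in Scnn1b-Tg AMs (5 higher, 5 lower), which is 56.2% and 62.5% against 31.8% and 38.1% of all genes. Pparg, the lipid-sensing nuclear receptor on which AM development depends, was at 123, 121 and 122 CPM in WT medium and at 30.4, 27.8 and 28.5 CPM with LPS. Scnn1b-Tg libraries held 160, 144 and 151 CPM in medium and 27.0, 27.2 and 25.6 CPM with LPS. It fell by 2.08 (SE 0.07, adjusted p = 1.55e-08) on the log2 scale in WT and by 2.51 (SE 0.07, adjusted p = 3.36e-09) in Scnn1b-Tg AMs. The coactivator gene Ppargc1b fell by 1.13 and by 1.34, and Tfeb, a regulator of lysosomal and lipid catabolic genes, by 0.91 and by 1.13. Other regulators went the other way: Ppard, Esrra and Hif1a were each higher with LPS in all 6 pools. Their means in WT medium and WT LPS libraries were 7.71 and 11.2, 36.7 and 46.1, and 155 and 294 CPM. In Scnn1b-Tg AMs the means were 7.37 and 12.2, 37.0 and 56.2, and 135 and 283 CPM. Ppara, the main regulator of these genes in liver, held at most 3 counts in any library.

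Between genotypes, edgeR called 0 genes of these 3 lists in medium, in LPS and in the interaction. At an unadjusted p under 0.05 there were 7 genes of the first list, 5 peroxisome genes and 5 regulators in medium (of 29, 39 and 16 tested, against 13.4% of all genes). In the same order there were 1, 2 and 1 in LPS (7.12% of all genes), and 2, 2 and 1 in the interaction (5.95% of all genes). DESeq2 called Pxmp4 and the regulators Pparg, Rxrb and Prkab1 in medium, Oxct1 in LPS, and Pparg in the interaction. For Pparg, the medium libraries of the genotypes did not overlap (log2 fold change 0.33, SE 0.07, adjusted p = 0.0799 by edgeR and 0.000374 by DESeq2), and the fall with LPS was larger in Scnn1b-Tg AMs by an interaction of −0.44 (SE 0.10, adjusted p = 0.377 by edgeR and 0.00519 by DESeq2). For Oxct1 with LPS, Scnn1b-Tg libraries were higher by 0.57 (SE 0.10, adjusted p = 0.0798 by edgeR and 0.000199 by DESeq2). Rxrb and Prkab1 were named after their values were seen.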

How the data were processed

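Airway macrophage RNA was amplified as full-length cDNA and sequenced in 12 libraries, 3 in each of 4 groups taken from the labels, as read pairs of 125 bp. The authors aligned reads to mm10 with HISAT2 in unstranded mode (nf-core RNAseq pipeline 1.2), quantified transcripts with StringTie and GENCODE M20, and deposited estimated counts per gene as whole numbers without normalization. GENCODE M21, also on mm10, gave symbols and positions. A nominal read length enters those counts, so a read can be worth more than 1 count.

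The filterByExpr function (minimum count 10, minimum total 15) kept 13729 of 20551 genes. edgeR 4.0.16 (R 4.3.3) fitted a quasi-likelihood model with group and batch to all 12 libraries after TMM scaling, with two-sided tests and Benjamini-Hochberg adjustment at 0.05. Alternatives were DESeq2 1.42.0, other scalings and filters, counts divided by 5, no batch term, a fit on the compared groups only, the pool as a block (fixed, or random with limma 3.58.1 voom) and leaving out each library. Code was tested on simulated data. Libraries of 1 pool came from the same animals, and the deviations of the 2 libraries from their group means correlated at 0.137 to 0.335 in every pool. Batch was not removed from these deviations, so the values cannot tell a shared pool from a shared batch. Exact tests of single values with 3 against 3 cannot go below 0.1. Errors of log2 fold changes are SE, and those of CPM are SD. Differences by pool or batch used log2(CPM + 0.5). Level per length used the longest principal (APPRIS) transcript. Where none was marked, it used the longest transcript tagged basic in GENCODE, or else the longest.

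The rule for the 32 genes names a function, but these genes and all lists were chosen with earlier results of these data known. Values in every library are given for genes called with LPS and with a log2 change over 1 in either genotype, and for the gene with the lowest p in WT in each of the 8 role groups. Other lists name the 3 largest changes called in both genotypes at a mean of at least 5 CPM. Cpt1a, Hadha, Cat, Abcd3, Acsl3, Acsl4, Cpt1b, Ppara, Ppard, Esrra, Hif1a and the marker Scgb1a1 were added after their values were seen. So were the other genes named with fold changes outside these rules.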

Additional observations from a re-analysis of the deposited data

How the results depend on the processing

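With LPS, the number of the 32 genes called ranged from 21 to 26 in WT and from 21 to 28 in Scnn1b-Tg AMs over 16 alternatives each, and from 21 to 25 and from 21 to 23 when a library was left out. Of the 49 calls, 41 held under every alternative run. The other 8 (Acadm, Acads, Eci2 and Etfa in WT, and Echs1, Etfa, Pex5 and Acsl3 in Scnn1b-Tg AMs) were lost under at least 1, and none changed direction in 784 alternative values. Between genotypes, DESeq2 called 2 of the 32 genes in medium where edgeR called 0, and the other alternatives called 0; the cause was not tested. In LPS and in the interaction all alternatives called 0, as did leaving out each library.

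With the pool as a random effect (replicate block), 26 genes were called in WT and 28 in Scnn1b-Tg AMs. The block added calls for Eci1, Eci2 and Decr2 as given with those genes, and lost none. Scaling by library sizes alone moved the median of all genes by −0.08 in WT and by −0.10 in Scnn1b-Tg AMs (log2) and lost the Pex5 and Acsl3 calls. The lowest count of any of the 32 genes in any library was 211.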
